A study of Homo sapiens with 6 samples.

Results

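The genes of the unfolded protein response and the integrated stress response were examined in human embryonic kidney cells after knockdown of the lncRNA *HSALNG0134318*. They were 39 genes chosen by symbol from the 26485 gene names of the count table, as regulators or targets of the ATF4, ATF6 and XBP1 branches. All 39 were found, and all 39 passed the filter on low counts.

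RNA-seq of polyA RNA was performed on 6 cultures of HEK293, an established line derived from human embryonic kidney. In the knockdown group (3 cultures), cells had been transiently transfected, with Lipofectamine RNAiMAX, with a Smart Silencer, which combines small interfering RNAs with antisense oligonucleotides against *HSALNG0134318*. The control group (3 cultures) is labelled NC and WT, and the sources used here do not name what these cells were transfected with. The comparison asks which of the 39 genes differed between the groups, in whole cultures of 1 cell line and with no added ER stress. The silenced lncRNA has no entry under its name among the 26485, and its own level gave no check of the labels. The series describes the cultures as biological replicates, and p values measure the spread among them only. In bulk RNA, a gene lower in every cell and a gene lost with some of the cells give the same count.

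Counts per culture totalled from 13900965 to 16869948. The quasi-likelihood test of edgeR was run over 14877 genes, and a gene with a Benjamini-Hochberg adjusted p under 0.05 is said to be called, whatever its fold change. By that rule, 690 genes were lower and 804 higher in the knockdown group, and 3996 genes (26.9%) had an unadjusted p under 0.05, the share against which unadjusted counts are to be read. Levels are given as normalized counts, in which every culture is brought to one common depth, and SE is the standard error of a log2 fold change. *VIM* and *KRT8*, genes expected in HEK293, were at 9313 or more and 5849.8 or more normalized counts in every culture. *UMOD*, a gene of the differentiated nephron, and *HBB* of red blood cells were at 0 in all 6. The other marker genes checked are not listed here. Control replicate 2 stood apart. Its root mean square distance from the other controls was 0.44 and 0.49 on the log2 scale, against 0.37 between the other two controls and 0.27 to 0.31 among the knockdown cultures. Between knockdown and control cultures the distance was 0.40 to 0.55, a range into which the distances among controls reached. Control replicate 3 was nearer to each knockdown culture (0.40 to 0.41) than to control replicate 2 (0.49). Where removal of control replicate 2 moved a member whose values by culture are given by over 1.5 times, the value without it is given.

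Proteins of the secretory pathway fold in the endoplasmic reticulum (ER), and cells sense a surplus of unfolded protein there through the membrane proteins PERK, IRE1 and ATF6. PERK, encoded by *EIF2AK3*, and related kinases phosphorylate eIF2, which lowers protein synthesis but favours translation of the transcription factor ATF4, and this arm is the integrated stress response. IRE1, encoded by *ERN1*, splices *XBP1* mRNA, while ATF6 is cut in the Golgi to release a transcription factor, and both raise chaperones and the machinery that removes misfolded proteins. Phosphorylation, cleavage, splicing and translation are not seen in counts of reads per gene, so the values describe RNA levels alone.

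Short sequence elements through which these branches are known to act are shown here for the members that hold them, to place the genes in their branches. The promoter windows of RefSeq (GRCh38.p14) run from 250 bases before each gene's start to 50 after it and were given for 36 of the 39 genes. Both strands were searched, and each run reads 5′ to 3′ along the gene with the fixed letters of the element in capitals, so that an element on the other strand appears as its reverse complement. The ER stress response element (CCAAT, 9 bases of any kind, then CCACG), a known site of ATF6, was found in 22 of 27305 promoters (0.0806%) and in 6 of the 36 member promoters, with 2 matches in *HSP90B1*, of which 1 is printed.
HSPA5 (chr9:125241386-125241414, minus strand): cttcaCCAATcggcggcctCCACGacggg
HSP90B1 (chr12:103930211-103930239, plus strand): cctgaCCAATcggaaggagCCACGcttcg
CALR (chr19:12938379-12938407, plus strand): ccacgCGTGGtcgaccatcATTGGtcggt
CANX (chr5:179698773-179698801, plus strand): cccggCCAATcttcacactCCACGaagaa
CRELD2 (chr22:49918549-49918577, plus strand): cctctCGTGGcgaactcggATTGGgccat
XBP1 (chr22:28800598-28800626, minus strand): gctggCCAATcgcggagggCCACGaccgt
The element TGACGTGG, which XBP1 and ATF6 can bind, was in 217 promoters (0.795%) and in 1 member promoter.
HYOU1 (chr11:119057375-119057404, minus strand): cgctggccccgTGACGTGGtccaatcccag
The composite element of ATF4 and its C/EBP partners, searched as TGATGNAA, was in 1003 promoters (3.67%) and in 5 member promoters, 3 of which are printed because their genes are described in detail.
CHAC1 (chr15:40953251-40953280, plus strand): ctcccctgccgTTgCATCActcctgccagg
ASNS (chr7:97872458-97872487, minus strand): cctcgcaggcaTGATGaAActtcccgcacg
HERPUD1 (chr16:56931955-56931984, plus strand): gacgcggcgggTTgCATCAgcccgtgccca
The remaining matches were in *ATF3* and *PPP1R15B*. The members were listed because they are known targets of these branches, so the element shares describe the list and were not tested. A match is a run of letters in a window, and the binding of no factor was measured.

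Of the 39 genes, 3 were lower in the knockdown group (*CHAC1*, *VLDLR* and *EDEM1*) and 1 was higher (*CALR*). These 4 genes are 10.3% of the list, while 10.04% of all genes tested were called, 4.64% lower and 5.40% higher. The members' share is thus close to the background, and is not a result about the members. The median log2 fold change of the 39 genes was 0.02, against -0.02 over all genes tested, with 21 values above and 18 below 0. Of the 39, 30 had a log2 fold change within 0.3 of 0. In 10 members (25.6%) the knockdown and control values did not overlap, against 32.2% of all genes tested. Without control replicate 2, 4 members were lower and 4 higher, with 16.7% of all genes called. Without control replicate 3, 5 were lower and 4 higher, with 13.7% of all genes called. Leaving out knockdown replicate 1 gave 2 members lower and 0 higher, with 3.92% of all genes called. With knockdown replicate 2, knockdown replicate 3 or control replicate 1 left out, 1 member was lower and 0 higher. The shares of all genes called there were 3.55%, 3.51% and 4.44%, in that order.

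**Figure D1:**
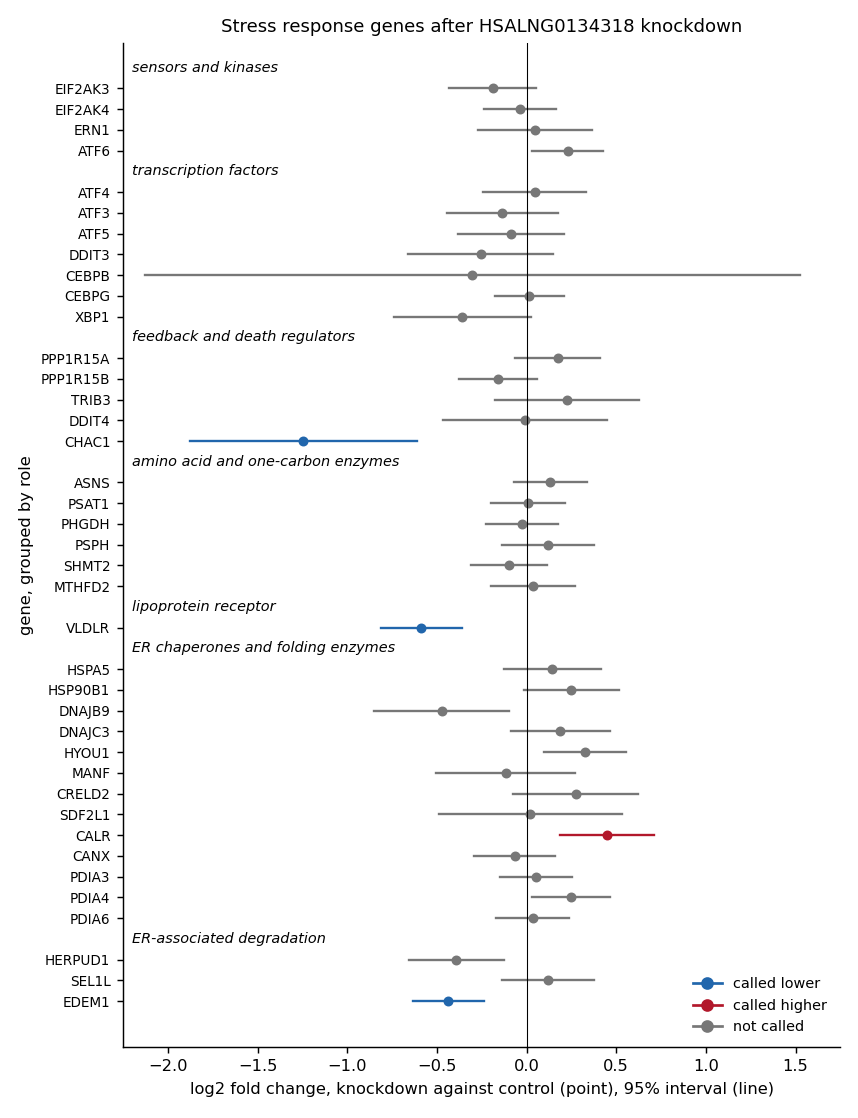
Log2 fold change of each of the 39 genes, knockdown against control (x axis, point), with its 95% interval (line), grouped by role (y axis) and coloured by call. *CHAC1* at -1.24, *VLDLR* at -0.59 and *EDEM1* at -0.44 were called lower and *CALR* at 0.45 higher, while the other 35 genes were not called.

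Among the sensors and kinases, 0 of 4 were called by edgeR, DESeq2 or limma-voom, against 10.04% of all genes tested in edgeR. Their log2 fold changes ran from -0.19 to 0.23. At an unadjusted p under 0.05 in edgeR there was 1 gene, *ATF6* (25.0%, against 26.9% of all genes). *EIF2AK3*, which encodes PERK, had 474, 513 and 511 normalized counts in knockdown replicates 1, 2 and 3, and 622, 546 and 538 in control replicates 1, 2 and 3. The groups did not overlap, though the highest knockdown value was close to the lowest control value. The log2 fold change was -0.19 (SE 0.11) with an adjusted p of 0.31. *ATF6* had 1270.4, 1226 and 1279.6 normalized counts in the knockdown cultures and 1054, 1023 and 1145 in the controls. All 3 knockdown values of *ATF6* lay above all 3 control values. Its log2 fold change of 0.23 (SE 0.09, 95% interval 0.03 to 0.43) did not pass the test over all genes, with an adjusted p of 0.13. *ERN1*, which encodes IRE1, was measured at 255, 228 and 303 normalized counts after knockdown and at 268, 264 and 229 in controls. These values overlapped throughout, with a log2 fold change of 0.04 (SE 0.15, adjusted p of 0.88), or 0.074 without control replicate 2. *EIF2AK4* encodes GCN2, the eIF2 kinase that senses uncharged tRNA, and its log2 fold change was -0.04 (SE 0.09).

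None of the 7 transcription factors was called by edgeR, DESeq2 or limma-voom, against 10.04% of all genes tested in edgeR. In edgeR 0 of the 7 had an unadjusted p under 0.05, against 26.9% of all genes. The values of every one overlapped between the groups, while 32.2% of all genes did not overlap. Whether 0 of 7 differs from these shares was not tested. *ATF4*, the central factor of the integrated stress response, had 4168, 3839 and 3963 normalized counts in the knockdown cultures and 2983, 4406 and 4214 in the controls. The 3 knockdown values lay inside the range of the controls, of which replicate 1 was the lowest of the 6 cultures. The log2 fold change of *ATF4* was 0.04 (SE 0.13, 95% interval -0.24 to 0.33, adjusted p of 0.86), and it was -0.11 without control replicate 1 and 0.15 without control replicate 2. *XBP1*, the substrate of IRE1 and a factor for ER folding genes, had 654, 587 and 659 normalized counts after knockdown. In controls it had 702, 1085 and 644, so that control replicate 2 was far above the other cultures. Its log2 fold change was -0.36 (SE 0.17) with an adjusted p of 0.21, and without control replicate 2 it was -0.088 with an adjusted p of 0.62. *DDIT3* encodes CHOP, a factor linked to cell death under prolonged stress, and it had 107, 119 and 126 normalized counts in the knockdown cultures against 115, 169 and 135 in the controls. The groups overlapped, and the log2 fold change of *DDIT3* was -0.26 (SE 0.18, adjusted p of 0.41), or -0.095 without control replicate 2. *DDIT3* lies on the opposite strand to *MARS1* and *MBD6*, whose gene bodies overlap its own, and the strand setting of the counting is not given in the sources used here, so reads of the 3 genes may not be fully separated. *MARS1* had means of 3342 and 3287 normalized counts in the knockdown and control groups, far above those of *DDIT3*, and *MBD6* was called higher, with means of 1267 and 874 (log2 fold change 0.54, adjusted p of 0.0060).

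The stress-induced factors *ATF3* and *ATF5* had log2 fold changes of -0.14 (SE 0.14) and -0.09 (SE 0.14), and *CEBPG*, a partner of ATF4, had 0.02 (SE 0.09). *CEBPB*, another C/EBP partner, was the least certain of the 39. It had 19.3, 33.4 and 29.0 normalized counts in the knockdown cultures and 7.14, 79.4 and 11.3 in controls, with control replicate 2 above all others and the other controls below all knockdown values. Its log2 fold change of -0.30 (SE 0.79) became 1.54 with an adjusted p of 0.028 without control replicate 2.

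**Figure D2:**
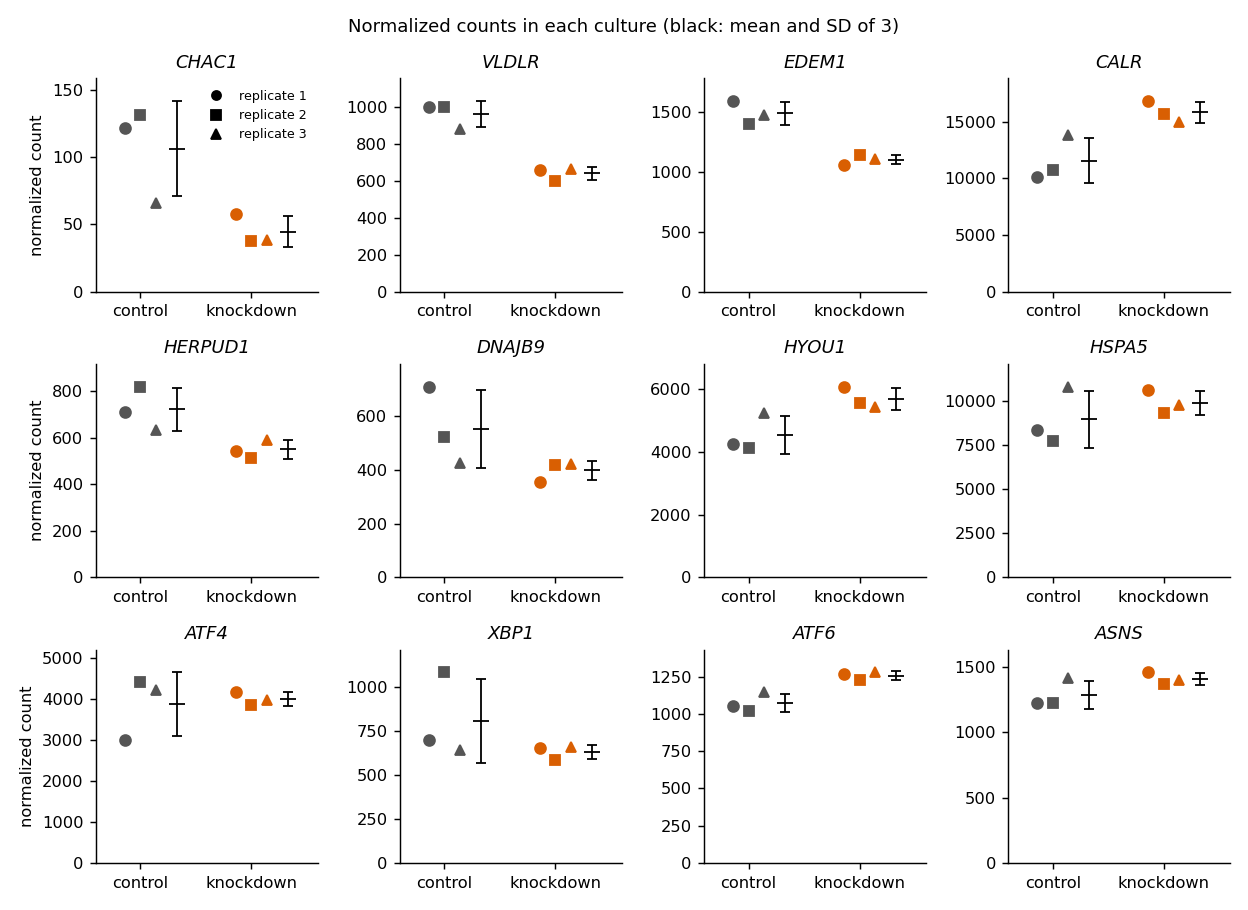
Normalized count (y axis, from 0) of 12 members in each control and knockdown culture (x axis), with one symbol per replicate number and the mean and SD of 3 cultures in black. *CHAC1*, *VLDLR*, *EDEM1* and *CALR* were called and do not overlap between groups, whereas *XBP1*, *ATF4*, *HSPA5* and *ASNS* overlap, with control replicate 2 of *XBP1* at 1085.

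The largest difference among the 39 genes was in *CHAC1* (chr15:40952962-40956512, plus strand, GENCODE release 44 on GRCh38), which encodes an enzyme that degrades glutathione and is induced by ATF4. It was measured at 57.8, 37.6 and 38.6 normalized counts in the knockdown cultures and at 121, 131 and 65.8 in the controls. All knockdown values were lower than all control values, with the gap narrowest at control replicate 3. The mean fell from 106 ± 35.3 to 44.7 ± 11.4 (SD, n = 3 cultures), a log2 fold change of -1.24 (SE 0.29, adjusted p of 0.020), or 57.8% lower. Per kilobase of transcript, *CHAC1* was among the least abundant members, at 29.4 normalized counts after knockdown and 69.8 in controls. The adjusted p of *CHAC1* rose to 0.092 without knockdown replicate 2, 0.091 without knockdown replicate 3 and 0.085 without control replicate 1, with log2 fold changes of -1.13, -1.15 and -1.14. Its promoter match to the ATF4 and C/EBP element lay on the other strand at positions -209 to -202, counted from the RefSeq start of the gene (position 40953471) as 0, which lies inside the GENCODE gene body.

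The other 4 feedback and death regulators were not called. *TRIB3*, a pseudokinase that ATF4 and CHOP induce and that restrains ATF4, had 544, 461 and 455 normalized counts in the knockdown cultures and 339.8, 559 and 347 in controls. Control replicate 2 was the highest of all 6 cultures, while the other controls were the lowest. The log2 fold change of *TRIB3* was 0.23 (SE 0.18, adjusted p of 0.46), and it was 0.50 with an adjusted p of 0.010 without control replicate 2. Without control replicates 1 and 3 it was 0.10 and 0.12, with adjusted p of 0.79 and 0.72. *PPP1R15A* and *PPP1R15B*, which encode subunits that direct a phosphatase to eIF2, had 0.17 (SE 0.11) and -0.16 (SE 0.10). *DDIT4*, an inhibitor of mTORC1 signalling, had a log2 fold change of -0.01 with a 95% interval of -0.46 to 0.45.

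The enzymes of amino acid and one-carbon metabolism, a classical output of ATF4, had the narrowest range of log2 fold changes among the roles with more than 1 gene. None of the 6 was called by edgeR, DESeq2 or limma-voom, against 10.04% of all genes tested in edgeR. In edgeR 0 had an unadjusted p under 0.05 and none had separate groups, against 26.9% and 32.2% of all genes. Whether 0 of 6 differs from these shares was not tested. The log2 fold changes of the 6 ran from -0.10 to 0.13 with standard errors of at most 0.12. *ASNS*, asparagine synthetase, had 1456, 1368 and 1399 normalized counts in the knockdown cultures and 1224, 1220.1 and 1411 in the controls. Control replicate 3 lay among the knockdown values and the other controls below them. The log2 fold change of *ASNS* was 0.13 (SE 0.09, 95% interval -0.07 to 0.34, adjusted p of 0.40). *PHGDH*, *PSAT1* and *PSPH*, the enzymes of serine synthesis in their order in the pathway, had -0.03, 0.01 and 0.12, each with an adjusted p of at least 0.55. The mitochondrial folate enzymes *SHMT2* and *MTHFD2* had -0.10 and 0.04. The interval of each of these 6 genes lay between -0.31 and 0.38.

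*VLDLR* (chr9:2621182-2660056, plus strand), which encodes the very low density lipoprotein receptor and is induced by ATF4 under ER stress, was called lower. It had 660.3, 598 and 662 normalized counts in the knockdown cultures and 1000, 1002 and 881 in the controls. The groups were far apart relative to the spread within them. The mean of *VLDLR* fell from 961 ± 69.5 to 640.1 ± 36.7 (SD, n = 3 cultures), with a log2 fold change of -0.59 (SE 0.10, adjusted p of 0.0054), or 33.4% lower. *VLDLR* was the only member called in all 14 alternative settings, with adjusted p between 9.7e-05 and 0.047. An antisense gene, *VLDLR-AS1*, overlaps it and had means of 7.81 and 4.91 normalized counts in the knockdown and control groups. None of the 3 elements was found in the promoter window of *VLDLR*. That window starts at position 2621537, inside the GENCODE gene body, and does not reach the sequence before the GENCODE start.

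Among the 13 chaperones and folding enzymes of the ER, 1 gene was higher and none was lower (7.69%, against 10.04% of all genes tested). Of the 13 log2 fold changes, 10 were positive, with a median of 0.14. At an unadjusted p under 0.05, 3 were higher and 1 lower in edgeR (30.8%, against 26.9% of all genes). The DESeq2 Wald test called 2 higher and 0 lower and limma-voom 1 and 0, while these tools called 12.2% and 9.85% of all genes. *CALR* (chr19:12938578-12944489, plus strand) encodes calreticulin, a lectin chaperone that binds glycoproteins and calcium in the ER. It had 16813, 15654 and 15012 normalized counts in the knockdown cultures and 10120.1, 10775 and 13864 in controls. All knockdown values were higher than all control values, with control replicate 3 the nearest. The mean of *CALR* rose from 11586 ± 1999 to 15826 ± 913 (SD, n = 3 cultures), a log2 fold change of 0.45 (SE 0.12, adjusted p of 0.037), or 36.6% higher. Per kilobase of transcript it was the most abundant of the 39, at 8325 and 6095 normalized counts in the knockdown and control groups. Its adjusted p was 0.15, 0.12 and 0.098 without knockdown replicates 1, 2 and 3 and 0.13 without control replicate 1, with log2 fold changes from 0.36 to 0.49. *CANX*, the membrane-bound relative of calreticulin, had a log2 fold change of -0.07 (SE 0.10, 95% interval -0.29 to 0.16), and the difference between *CALR* and *CANX* was not tested.

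*HSPA5* encodes BiP, the major Hsp70 chaperone of the ER and the usual reporter of an unfolded protein response. It had 10647, 9322 and 9748 normalized counts in the knockdown cultures and 8377, 7714 and 10798 in the controls. Control replicate 3 was the highest of the 6, so the groups overlapped. The log2 fold change of *HSPA5* was 0.14 (SE 0.12, 95% interval -0.13 to 0.42, adjusted p of 0.49), and it was 0.047 without control replicate 2 and 0.31 without control replicate 3, where the adjusted p was 0.060. *HSP90B1*, the ER member of the Hsp90 family, had 0.25 (SE 0.12, adjusted p of 0.22), and 0.41 with an adjusted p of 0.019 without control replicate 3 but 0.14 with an adjusted p of 0.33 without control replicate 2. *HYOU1*, a nucleotide exchange factor for BiP, had 6064, 5536 and 5438 normalized counts after knockdown and 4247, 4133 and 5217 in controls. Its groups did not overlap, and its log2 fold change of 0.33 (SE 0.11) had an adjusted p of 0.074, which was 0.012 without control replicate 3 and 0.046 in the DESeq2 Wald test. *PDIA4*, a protein disulfide isomerase, had 0.25 (SE 0.10, adjusted p of 0.14) without overlap, and its adjusted p was 0.033 without control replicate 3. The isomerases *PDIA3* and *PDIA6* had 0.05 and 0.03 (SE 0.09 each).

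*DNAJB9*, an Hsp40 partner of BiP that restrains IRE1 and is a target of XBP1, had a negative value among the chaperones. It was measured at 355, 416 and 421 normalized counts in the knockdown cultures and at 708, 520.3 and 426 in controls. The groups did not overlap, but control replicate 3 was next to the highest knockdown values. Its log2 fold change was -0.47 (SE 0.17) with an adjusted p of 0.10, and adjusted p was 0.045 and 0.027 without control replicates 2 and 3. Without control replicate 1 the log2 fold change was -0.25, with an adjusted p of 0.32. *DNAJC3*, a co-chaperone that also inhibits PERK, had 0.19 (SE 0.13). The secreted or resident factors *CRELD2*, *MANF* and *SDF2L1* had 0.27 (SE 0.16), -0.12 (SE 0.18) and 0.02 (SE 0.23). *CRELD2* had 681, 607 and 647 normalized counts after knockdown and 397, 652 and 550.4 in controls, and without control replicate 2 its log2 fold change was 0.45 with an adjusted p of 0.029, but without control replicate 1 it was 0.10 with an adjusted p of 0.67. *MANF* and *SDF2L1* were each highest in control replicate 2, at 712 and 317, and without it their log2 fold changes were 0.13 and 0.41, with adjusted p of 0.50 and 0.075.

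In each culture, the 13 chaperones and folding enzymes together took 0.587%, 0.568% and 0.561% of all counts in knockdown replicates 1, 2 and 3, and 0.484%, 0.455% and 0.569% in control replicates 1, 2 and 3. Control replicate 3 lay within the knockdown range, and the other controls lay below it. The mean log2 ratio to the control mean weighs the 13 genes alike. It was 0.16, 0.10 and 0.10 in knockdown replicates 1, 2 and 3, and -0.09, 0.01 and 0.08 in control replicates 1, 2 and 3. On that measure the groups did not overlap, with control replicate 3 close to the knockdown cultures, and the difference was not tested. Over all 39 genes, the share ran from 0.780% to 0.804% after knockdown and from 0.682% to 0.792% in controls, again with overlap through control replicate 3.

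**Figure D3:**
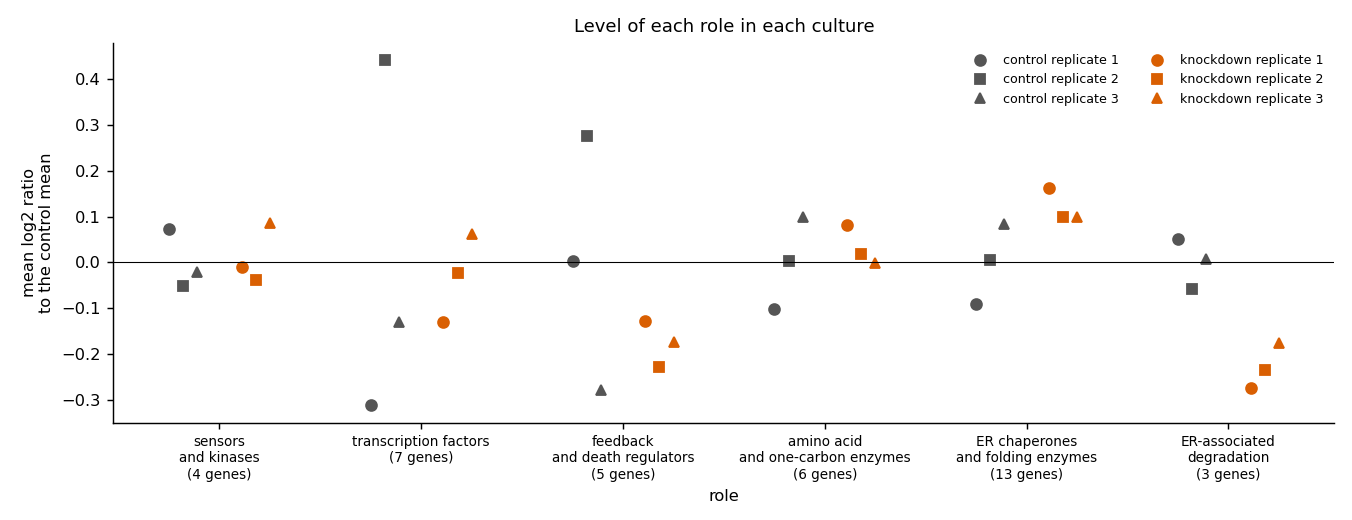
Mean log2 ratio of normalized counts to the mean of the controls (y axis) over the genes of each role (x axis), one symbol per culture. Control and knockdown cultures overlap in the sensors, transcription factors, feedback regulators and amino acid enzymes, and control replicate 2 is at 0.44 in transcription factors. The 3 genes of ER-associated degradation lie at -0.28 to -0.18 after knockdown and -0.06 to 0.05 in controls. The 13 ER chaperones and folding enzymes lie at 0.10 to 0.16 after knockdown and -0.09 to 0.08 in controls.

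ER-associated degradation is the route by which misfolded proteins leave the ER for the proteasome. Of its 3 genes here, 1 was lower and none higher (33.3%, against 10.04% of all genes tested). *EDEM1* (chr3:5187646-5219958, plus strand) encodes a protein that takes misfolded glycoproteins to degradation. It had 1058, 1135 and 1102 normalized counts in the knockdown cultures and 1586, 1398 and 1474 in the controls. Every knockdown value was lower than every control value by a margin wider than the range of either group. The mean of *EDEM1* fell from 1486 ± 94.5 to 1099 ± 38.4 (SD, n = 3 cultures), a log2 fold change of -0.44 (SE 0.09, adjusted p of 0.012), or 26.1% lower. The adjusted p was 0.065, 0.059 and 0.075 without knockdown replicates 1, 2 and 3 and 0.052 without control replicate 1, with log2 fold changes from -0.46 to -0.39. *HERPUD1*, a component of the degradation complex in the ER membrane, had 544, 513 and 591 normalized counts after knockdown and 710.2, 818 and 634 in controls. Its groups did not overlap, and its log2 fold change was -0.39 (SE 0.12, adjusted p of 0.065). Its adjusted p was 0.030 without control replicate 3, 0.044 in the DESeq2 Wald test, 0.048 with no filter and 0.019 with a correction for GC content and length, and so *HERPUD1* was called lower in these 4 settings of 14. *SEL1L*, the partner of the ubiquitin ligase HRD1, had 0.12 (SE 0.12), with control replicate 2 the lowest of its 6 cultures at 1591, and -0.0081 without that culture.

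Other genes of the same pathways were counted from lists set up by function. Of 108 such genes, 107 were tested, 1 was lower and 7 were higher (7.48%, against 10.04% of all genes tested). Their median log2 fold change was 0.00. None of the 10 genes of eIF2, its other kinases and its exchange factor was called by edgeR, DESeq2 or limma-voom. In edgeR 10.04% of all genes tested were called, and whether 0 of the 10 differs from that share was not tested. The log2 fold changes of these 10 genes ran from -0.20 to 0.34, and 2 were higher at an unadjusted p under 0.05 in edgeR (20.0%, against 26.9% of all genes). Among 20 other targets of ATF4 that were tested, 1 was higher (5.0%, against 10.04% of all genes tested). This was *SLC7A1*, a transporter of cationic amino acids, which had 2143, 2044 and 2032 normalized counts in the knockdown cultures and 1496, 1413 and 1563 in the controls. Its groups were well apart, with a log2 fold change of 0.48 (SE 0.08, adjusted p of 0.0057), and it was called in all 14 alternative settings. The stress-induced genes *GDF15* and *NUPR1*, which had the most negative values of that list at -1.15 (SE 0.42) and -1.05 (SE 0.55), were not called and are named after their values were seen. Both were at most 53.6 normalized counts in any culture.

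The 20 cytosolic aminoacyl-tRNA synthetases attach amino acids to tRNAs and include known targets of ATF4. Of these 20, 3 were higher and none was lower (15.0%, against 10.04% of all genes tested). *HARS1*, listed as *HARS*, had 1929.8, 1809.9 and 1739 normalized counts after knockdown and 1321, 1299 and 1414 in controls, with a log2 fold change of 0.44 (SE 0.09, adjusted p of 0.010). *KARS1*, listed as *KARS*, had 2432, 2374 and 2249 against 1489, 1649 and 1879.7, with a log2 fold change of 0.49 (SE 0.10, adjusted p of 0.011). In both genes every knockdown culture was above every control. Without knockdown replicate 1 or 2, the adjusted p was 0.058 and 0.056 for *HARS1* and 0.058 and 0.059 for *KARS1*. *VARS1*, listed as *VARS*, had 3950.1, 3473 and 3478 against 2357, 2735 and 3137, a log2 fold change of 0.41 (SE 0.11, adjusted p of 0.041). Its adjusted p was 0.17, 0.11 and 0.11 without knockdown replicates 1, 2 and 3 and 0.13 without control replicate 1. The other 17 synthetases were not called, and the median of the list was 0.07. DESeq2 and limma-voom each called the same 3 genes, while these tools called 12.2% and 9.85% of all genes. In edgeR 4 genes were higher and 0 lower at an unadjusted p under 0.05 (20.0%, below the 26.9% of all genes). The gene bodies of *HARS1* and *KARS1* overlap those of other genes, *HARS2* and *WDR55* among them, none of which was called.

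Of 18 other genes of ER folding and quality control, 2 were higher and none was lower (11.1%, against 10.04% of all genes tested). At an unadjusted p under 0.05 in edgeR, 6 were higher and 1 lower (38.9%, against 26.9% of all genes). DESeq2 called 3 higher and limma-voom 2, while these tools called 12.2% and 9.85% of all genes. *P4HB*, a protein disulfide isomerase and a subunit of prolyl hydroxylase, had 11039, 9972 and 10082 normalized counts in the knockdown cultures and 6674, 7963 and 7920.1 in controls. The groups did not overlap, and the log2 fold change of *P4HB* was 0.46 (SE 0.10, adjusted p of 0.014). *FKBP14*, a prolyl isomerase of the ER, had 584, 788 and 754 against 452, 463 and 444, with a log2 fold change of 0.64 (SE 0.13, adjusted p of 0.010). Its knockdown values were all above the controls but varied more among themselves. For *P4HB*, the adjusted p was 0.079, 0.056 and 0.062 without knockdown replicates 1, 2 and 3 and 0.057 without control replicate 1, and for *FKBP14* it was 0.066 and 0.063 without knockdown replicates 2 and 3.

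None of 14 other genes of ER-associated degradation was called by edgeR, DESeq2 or limma-voom, against 10.04% of all genes tested in edgeR. Whether 0 of 14 differs from that share was not tested. The median of the 14 log2 fold changes was -0.08, with a range of -0.29 to 0.18. At an unadjusted p under 0.05 in edgeR, 3 of them were lower (21.4%, against 26.9% of all genes). Among 15 genes of ER translocation and transport, 1 was lower (6.67%, against 10.04% of all genes tested). *SRP54*, a subunit of the signal recognition particle, had 1509, 1483 and 1458 normalized counts after knockdown and 1942, 1685 and 2067 in controls. The knockdown cultures were all lower, with a log2 fold change of -0.35 (SE 0.10, adjusted p of 0.038). The call of *SRP54* was lost without knockdown replicates 1, 2 and 3 (adjusted p of 0.11, 0.15 and 0.17) and without control replicates 1 and 3 (0.11 and 0.083). Of 10 other sensors and cleaving enzymes, 1 was higher and 0 lower, against 10.04% of all genes tested, so the called share was close to the background. At an unadjusted p under 0.05 in edgeR there were 5 of the 10, 3 lower and 2 higher, against 26.9% of all genes. Knockdown and control values did not overlap in 6 of the 10, against 32.2% of all genes tested. Whether these shares differ from those of all genes was not tested. DESeq2 called *NFYB* lower and *CREB3* higher, and limma-voom called *CREB3* alone, while these tools called 12.2% and 9.85% of all genes. *CREB3*, a membrane-bound factor cleaved like ATF6, had 704, 594 and 631 normalized counts after knockdown and 379, 429 and 534 in controls. These did not overlap, with a log2 fold change of 0.52 (SE 0.14, adjusted p of 0.036). Without knockdown replicates 1, 2 and 3 and control replicate 1, the adjusted p of *CREB3* was 0.14, 0.082, 0.12 and 0.12.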

How the data were processed

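RNA-seq of 3 *HSALNG0134318* knockdown and 3 control HEK293 cultures was analysed. After trimming (Trim Galore) and removal of ribosomal RNA reads (SortMeRNA), the authors used STAR for alignment, to hg38 per the submitters' processing notes, and featureCounts for counting, and the deposited counts are whole numbers without normalization. The annotation, strand setting and treatment of multi-mapping reads are not given in the sources used here. Libraries were made with a stranded mRNA kit.

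Genes were kept by filterByExpr, scaled by TMM factors and compared in R 4.3.3 by the robust quasi-likelihood F test of edgeR 4.0.16, with Benjamini-Hochberg adjustment. Normalized counts are counts divided by effective library size, times the mean effective library size. The standard error is the size of the log2 fold change over the root of F, and 95% intervals use the t distribution. The biological coefficient of variation was 12.4%, and an exact permutation test of 3 against 3 cultures cannot give a two-sided p under 0.1. Lengths came from GENCODE release 44 (1 transcript per gene), with 97.3% of tested genes matched, and promoters from RefSeq. Scripts were checked on simulated counts.

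Alternatives were DESeq2 1.42.0 size factors or library sizes alone, a filter of 10 counts in every culture, no filter, a replicate block, the DESeq2 Wald test, limma-voom (limma 3.58.1), a loess correction for GC content and length, and each culture left out. Members and lists were chosen with earlier results of these data known. Chosen beforehand for values by culture were all called members, 6 regulators, 6 targets and at most 4 called genes of each other list. *HYOU1*, *CRELD2* and *CEBPB* were outside this choice and were not called with all 6 cultures, but their values by culture are also given. Figures were drawn with matplotlib 3.10.9 in Python 3.11.15.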

Additional observations from a re-analysis of the deposited data

How the results depend on the processing

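*CHAC1*, *VLDLR*, *EDEM1* and *CALR* were called under every alternative that kept all 6 cultures. Leaving out 1 culture in turn gave 1 to 5 members lower and 0 to 4 higher, 0 to 9 other pathway genes lower and 1 to 12 higher, and 233 to 1238 genes lower and 289 to 1274 higher in all, with a members' median of -0.02 to 0.04. With no filter and with the DESeq2 Wald test, 4 members were lower (*HERPUD1* added), 2 higher (*HYOU1* added) and 2 other pathway genes lower. In each of these settings 6 members were called, beside 8.17% of all genes with no filter and 12.2% in DESeq2. With the correction for GC content and length, 4 members were lower (*HERPUD1* added) and 3 higher (*CRELD2* and *HSP90B1* added), 10 other pathway genes lower and 13 higher, and 1445 genes lower and 1448 higher in all, so that 7 members were called beside 19.4% of all genes. *ERN1* had -0.0098 under that correction, *CEBPB* 0.18 with the replicate block and 0.41 with limma-voom, and *DDIT4* 0.0012 with library sizes, 0.030 with the block, 0.026 with limma-voom and 0.030 with the correction. The cause was not tested.

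Cultures with the same replicate number did not deviate together (correlations of -0.20 to -0.04). The labels also hold culture numbers, of which only knockdown replicate 1 and control replicate 3 share one, with a correlation of -0.01. Neither numbering was taken to pair the cultures, and the replicate block used the replicate numbers. With the replicate block, 3 members were lower and 1 higher, 8.96% of all genes were called, and *SRP54* and *AHSA1* lost their calls (adjusted p of 0.081 and 0.074).

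Signs changed when 1 culture was left out in *EIF2AK4* (-0.11 to 0.017), *ERN1* (-0.069 to 0.14), *ATF4* (-0.11 to 0.15), *ATF3* (-0.23 to 0.0056), *ATF5* (-0.17 to 0.012), *CEBPB* (-0.76 to 1.54), *CEBPG* (-0.036 to 0.071), *DDIT4* (-0.22 to 0.24), *PSAT1* (-0.039 to 0.098), *PHGDH* (-0.088 to 0.036), *MTHFD2* (-0.058 to 0.16), *MANF* (-0.26 to 0.13), *SDF2L1* (-0.15 to 0.41), *CANX* (-0.16 to 0.0023), *PDIA3* (-0.016 to 0.11), *PDIA6* (-0.019 to 0.11) and *SEL1L* (-0.0081 to 0.23), none of which was called with all 6 cultures. With 3 cultures a group, standard errors of members were 0.09 to 0.79, and differences above the standard error could also go uncalled. Values of 0.23 in *ATF6*, -0.39 in *HERPUD1* and -0.47 in *DNAJB9* were not called with all 6 cultures. The absence of a call is therefore not evidence of an equal level.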

Other observations

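Heat shock proteins outside the ER, most of them under the heat shock factor rather than the ER sensors, were counted beside the 39 genes. Of 13 such genes, 2 were higher and none was lower (15.4%, against 10.04% of all genes tested), with a median log2 fold change of 0.02. *HSPD1*, the mitochondrial chaperonin, had 16240.1, 15644 and 14990.2 normalized counts in the knockdown cultures and 9699, 7636 and 12083 in controls. Its groups did not overlap, with a log2 fold change of 0.67 (SE 0.14, adjusted p of 0.013), and the adjusted p was 0.066, 0.054 and 0.061 without knockdown replicates 1 and 2 and control replicate 1. *HSPE1*, its partner, whose gene body overlaps that of *HSPD1* on the opposite strand, was at most 115 normalized counts in any culture and had -0.87 (SE 0.31, adjusted p of 0.10). The body of *HSPE1* also overlaps that of *HSPE1-MOB4* on the same strand, which had means of 0 and 1.66 in the knockdown and control groups. How reads shared by overlapping genes were counted is not given in the sources used here. The low level and fold change of *HSPE1* may therefore not describe its RNA. *AHSA1*, a cochaperone that activates Hsp90, had 1728, 1579 and 1496 against 1096, 1293 and 1335, a log2 fold change of 0.37 (SE 0.10, adjusted p of 0.045). That call was lost without knockdown replicates 1, 2 and 3 and control replicate 1, at adjusted p of 0.17, 0.14, 0.10 and 0.13.

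*HSPA8*, the constitutive Hsp70 of the cytosol, had 11264, 7730.0 and 7538 normalized counts after knockdown and 13868, 15684 and 10342 in controls. Knockdown replicate 1 lay above control replicate 3, and the log2 fold change of -0.59 (SE 0.18) had an adjusted p of 0.076 in edgeR, while the DESeq2 Wald test called *HSPA8* lower. *HSP90AA1* had 0.34 (SE 0.14, adjusted p of 0.14). *HSPA8* and *HSP90AA1* are named after their values were seen.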
